A study of Mus musculus with 6 samples.

Results

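Integrins, selectins and related adhesion molecules were measured as RNA in mouse blood progenitors with and without the histone methyltransferase gene Dot1l. The genes were chosen by symbol from tables of 31626 genes: the integrin α and β chains, ICAM1, ICAM2 and ICAM5, the selectins and the selectin ligand Selplg, and Vcam1, Pecam1, Cd44, Jam2, Jam3, F11r, Cd47 and Esam. Itga2b, the αIIb chain of platelets, was left out by that rule. It gave 45 genes: 17 α chain rows, 9 β chain rows, 4 rows for selectins and their ligand, 11 for immunoglobulin-family and other surface molecules, and 4 whose symbols begin like a β chain but which encode none (Itgb1bp1, Itgb1bp2, Itgb1bp3 and Itgb3bp). None carried the placeholder value of a failed estimate.

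All libraries came from common myeloid progenitors of C57Bl/6 mice with floxed Dot1l alleles, transformed with the retrovirus MSCV-MN1-IRES-GFP, which delivers the leukaemia oncogene MN1 and the marker GFP. Cells grew in M3234 methylcellulose with FBS and the cytokines SCF, IL3 and IL6, and were sorted on day 7. The 3 control libraries were transduced with a control vector and kept Dot1l flox/flox, and the 3 Dot1l-deleted libraries were transduced with Cre and are labelled Dot1l -/-. No library had Cre with intact Dot1l, so effects of Cre and of the loss of Dot1l cannot be told apart. Whether the replicates were separate cultures is not in the labels; the p-values describe the spread among these 6 libraries, and that spread may be a technical one. The comparison asks how the RNA of these cells differs once Dot1l is lost.

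Integrins are surface receptors made of 1 α and 1 β chain, and the pair decides what is bound. The β2 integrins αL (LFA-1) and αM (Mac-1, CD11b) bind ICAMs, complement and fibrinogen on leukocytes, α4 with β1 binds VCAM1 and fibronectin, and α4 or αE with β7 bind mucosal ligands. Selectins bind sugar-bearing ligands such as PSGL-1, the product of Selplg, and start the rolling of leukocytes on vessel walls. In blood formation these receptors hold progenitors in the marrow, and β2 integrins serve mature neutrophils and monocytes.

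The values are FPKM, fragments per kilobase of gene relative to all mapped fragments of the library, so levels can be set side by side between genes. Between 17310 and 18034 genes were above 0 FPKM per library; read depth is not known from FPKM. Dot1l itself was at 20.2, 22.6 and 19.6 FPKM in the controls and at 8.24, 8.17 and 5.80 FPKM in the deleted libraries. The third Dot1l-deleted library stood apart: the median log2 deviation of its tested genes from the mean of all libraries was -0.366, against 0.0499 to 0.103 in the other libraries. Its 10 highest genes held 39.0% of its summed FPKM, against 6.59% to 10.8% in the other libraries. It was the lowest of the 3 deleted libraries for 22 of the 25 adhesion genes that were tested, and for 91.1% of all tested genes. Over all tested genes the log2 fold change had a median of -0.16, and of 0.00254 after median-of-ratios scaling, which divides each library by 1 common factor. Fold changes on that scale are given below as scaled values. Cd34 and Kit, markers of the labelled progenitors, were at 750 ± 14.0 and 117 ± 6.81 FPKM without deletion and at 123 ± 21.1 and 57.6 ± 11.9 FPKM with it (SD, n = 3 each).

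RNA of the αM, β2, β2-like and β7 chains and VCAM1 rose after Dot1l deletion, while that of the β3 chain, the αE chain and PECAM1 fell. Of the 45 genes, 25 had a mean of at least 1 FPKM over the 6 libraries and were tested with limma, and 20 did not. Of the 25, 6 were called higher and 3 lower at a Benjamini-Hochberg adjusted p under 0.05 over all 11924 tested genes, and 16 did not pass; of all tested genes 19.7% were called. The shares, 24% higher and 12% lower, stood beside 7.43% and 12.2% of all tested genes; the share called lower is near that background. Of the 25, 21 reached 1 FPKM on average in each group, and of these 5 were called higher and 2 lower. Itgb2l, Itgae, Itgb5 and Jam2 passed the filter only through the group in which they were high, so their p-values are no support of their own. For the 25 genes the median was -0.19 on the same scale, and -0.01 scaled. With scaling, 10 were called higher and 6 lower, against 23.1% and 22.3% of tested genes, 45.4% in all. Without the third Dot1l-deleted library, 9 of the same 25 were called higher and 5 lower, against 17.1% and 21.1% of tested genes, 38.2% in all. Over all tested genes, calls split into 886 higher and 1459 lower as deposited and into 2754 and 2660 with scaling. In bulk RNA, fewer cells of a type and less RNA per cell cannot be told apart, and this holds for each change below.

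**Figure D1:**
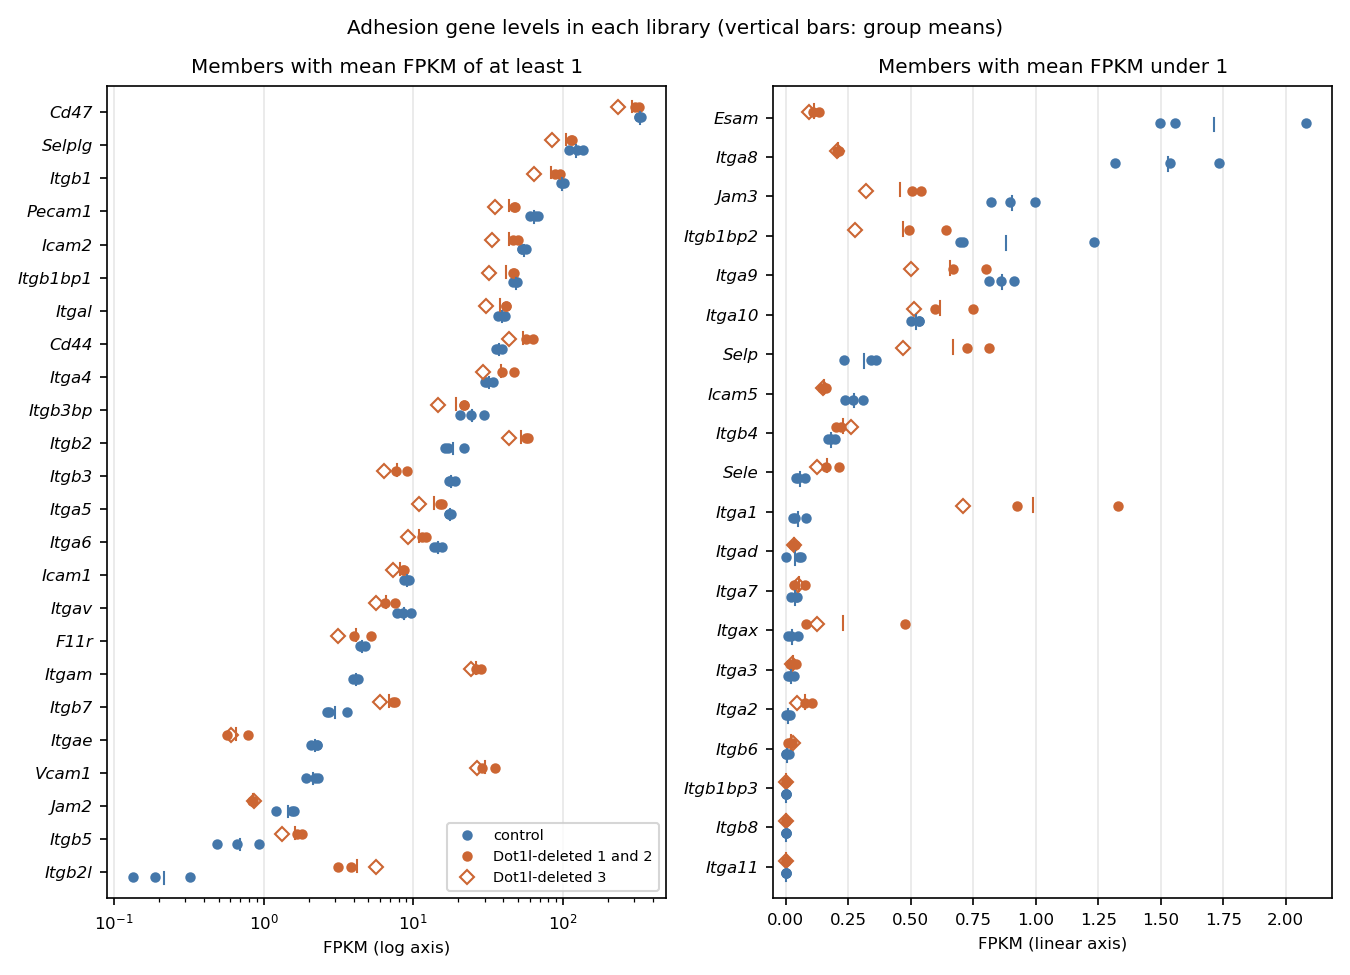
FPKM of 44 of the 45 genes in each library, on a log axis for the 24 drawn genes with a mean of at least 1 FPKM (left) and on a linear axis for the other 20 (right). Blue points are controls, filled orange points the first and second Dot1l-deleted libraries, the open diamond the third, and vertical bars group means; Vcam1, Itgam, Itgb2 and Itgb2l lie apart to the right after deletion, and Itgb3, Itgae, Esam and Itga8 to the left.

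The αM chain gene Itgam (ENSMUSG00000030786) was at 3.94, 4.31 and 4.13 FPKM in the controls and at 26.4, 28.4 and 24.3 FPKM after deletion. Every deleted library was above every control, and the spread within each group was small against the gap. The mean rose 6.39-fold, with a log2 fold change of 2.42 on the log2(FPKM + 1) scale (SE 0.129, limma adjusted p = 7.98e-07; scaled value 2.58). Its partner Itgb2 (ENSMUSG00000000290), the β2 chain CD18, was at 21.8, 16.3 and 17.1 FPKM and at 58.5, 56.4 and 44.0 FPKM. The groups did not overlap, and the rise was 2.88-fold (log2 fold change 1.48, SE 0.175, limma adjusted p = 0.000166; scaled value 1.66). The other β2 partner of high level, Itgal, the αL chain of LFA-1, did not pass: it was at 40.9, 40.05 and 37.0 FPKM in controls and at 42.0, 41.5 and 30.7 FPKM after deletion (limma adjusted p = 0.834). Its sign depended on scaling, with a log2 fold change of -0.06 as deposited and 0.12 scaled, and the scaled value passed narrowly (limma adjusted p = 0.0458). Itgax, the CD11c chain of dendritic cells, was far lower, at 0.00839, 0.0492 and 0.0213 FPKM in controls and at 0.477, 0.0795 and 0.125 FPKM after deletion. Its deleted libraries were above the controls, but differed among themselves. The αD chain gene Itgad stayed at or under 0.0622 FPKM in every library and its groups overlapped. Itgam, Itgax and Itgad follow each other directly on the chromosome among protein-coding genes.

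Itgb2l (ENSMUSG00000000157), a paralog of Itgb2 known as pactolus and made by neutrophils, was at 0.133, 0.188 and 0.322 FPKM in controls and at 3.13, 3.83 and 5.66 FPKM after deletion. All deleted libraries were above all controls, and here the third one, which was the lowest for most genes, was the highest. The mean rose 19.6-fold (log2 fold change 2.07, SE 0.215, limma adjusted p = 6.51e-05). Itgb2l passed the filter only through the deleted libraries, in which it was high, so this p is no support of its own. Related sequences can share reads, so the split between Itgb2 and Itgb2l is uncertain; within a library Itgb2l was at 0.00612 to 0.0189 of the Itgb2 level in controls and at 0.0535 to 0.129 after deletion.

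Promoter windows show the start sites of these genes. The RefSeq table of build GRCm38.p6 held windows of 250 bases before to 50 after a start site for 27 of the 45 genes; Itgb2 and Vcam1 were not among them. Printed below are the windows of Itgam, Itgax and Itgb2l, the genes of the β2 group with a window whose values were higher in every deleted library than in any control, and of Itga8, whose values were lower, as a contrast. Each is written 5′ to 3′ on the strand of the gene, in lower case, with capitals marking an ETS-type motif of PU.1-like factors (GAGGAAG, or CTTCCTC on the other strand) and a C/EBP-type motif (TTNNGNAA, or TTNCNNAA on the other strand).
Itgam, chr7:128062390-128062689, plus strand: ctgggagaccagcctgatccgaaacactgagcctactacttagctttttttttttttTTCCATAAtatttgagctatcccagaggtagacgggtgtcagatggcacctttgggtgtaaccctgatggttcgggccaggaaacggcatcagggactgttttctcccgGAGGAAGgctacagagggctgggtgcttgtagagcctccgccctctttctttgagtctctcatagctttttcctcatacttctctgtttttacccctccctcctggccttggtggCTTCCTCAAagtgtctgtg
Itgax, chr7:128129300-128129599, plus strand: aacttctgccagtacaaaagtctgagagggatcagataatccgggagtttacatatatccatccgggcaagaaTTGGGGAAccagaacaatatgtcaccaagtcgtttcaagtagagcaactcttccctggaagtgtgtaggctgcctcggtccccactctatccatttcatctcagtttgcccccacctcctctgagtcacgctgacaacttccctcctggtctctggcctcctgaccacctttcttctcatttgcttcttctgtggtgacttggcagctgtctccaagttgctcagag
Itgb2l, chr16:96443565-96443864, minus strand: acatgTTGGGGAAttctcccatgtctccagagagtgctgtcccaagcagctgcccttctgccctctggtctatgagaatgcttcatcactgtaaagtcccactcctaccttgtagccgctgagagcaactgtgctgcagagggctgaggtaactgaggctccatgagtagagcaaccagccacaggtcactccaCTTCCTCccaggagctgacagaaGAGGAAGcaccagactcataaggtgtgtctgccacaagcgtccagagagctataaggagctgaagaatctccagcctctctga
Itga8, chr2:12301895-12302194, minus strand: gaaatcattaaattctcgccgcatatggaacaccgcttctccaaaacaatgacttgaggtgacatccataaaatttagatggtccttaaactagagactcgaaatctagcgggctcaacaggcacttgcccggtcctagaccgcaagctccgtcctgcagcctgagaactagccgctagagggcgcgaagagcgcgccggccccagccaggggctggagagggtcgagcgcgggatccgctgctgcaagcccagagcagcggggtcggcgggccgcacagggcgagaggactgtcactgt
The Itgam window held the ETS-type letters at -84 to -78 and at 31 to 37, counted with the first transcribed base as 0, and the second of these overlaps a C/EBP-type match at 32 to 39; a further C/EBP-type match lay at -193 to -186. The Itgb2l window held the ETS-type letters at -56 to -50 and at -33 to -27, with a C/EBP-type match at -245 to -238. The Itgax window held a C/EBP-type match alone, and the Itga8 window held neither. Other genes lower in every deleted library than in any control as deposited did hold matches. Itga5 held C/EBP-type matches at -197 to -190 and at -120 to -113, and Itgav an ETS-type match at -8 to -2. Of all 32851 windows in the table, 13.6% held the ETS-type letters and 40.7% the C/EBP-type letters, and of the 30 windows of adhesion genes 7 and 9 did, so a match is a description of these windows and no more.

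The make-up of integrin RNA within a library is free of any factor common to all its genes. Among the α partners of β2, Itgam made up 8.77%, 9.69% and 10.05% of the summed FPKM in the controls and 38.3%, 40.6% and 44.1% after deletion, while Itgal made up 89.9% to 91.1% and 55.6% to 60.9%. Among the β chains without Itgb2l, the share of Itgb2 was 13.2% ± 1.99 in controls and 34.9% ± 1.04 in the deleted libraries, and that of Itgb1 was 71.1% ± 2.02 and 54.2% ± 1.42 (SD, n = 3 each). The β2 share thus stood in each deleted library above its level in any control, and the β1 share below it. Among the α chains, counted here with Itga2b because it was the highest of them in controls, Itga2b held 39.6% to 41.1% in controls and 11.7% to 12.5% after deletion. The 4 partners of β2 together held 20.6% to 22.2% and 39.4% to 42.8%. An exact two-sided permutation test of each of these shares returned p = 0.1, which is the lowest value possible with 3 libraries in each group.

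**Figure D2:**
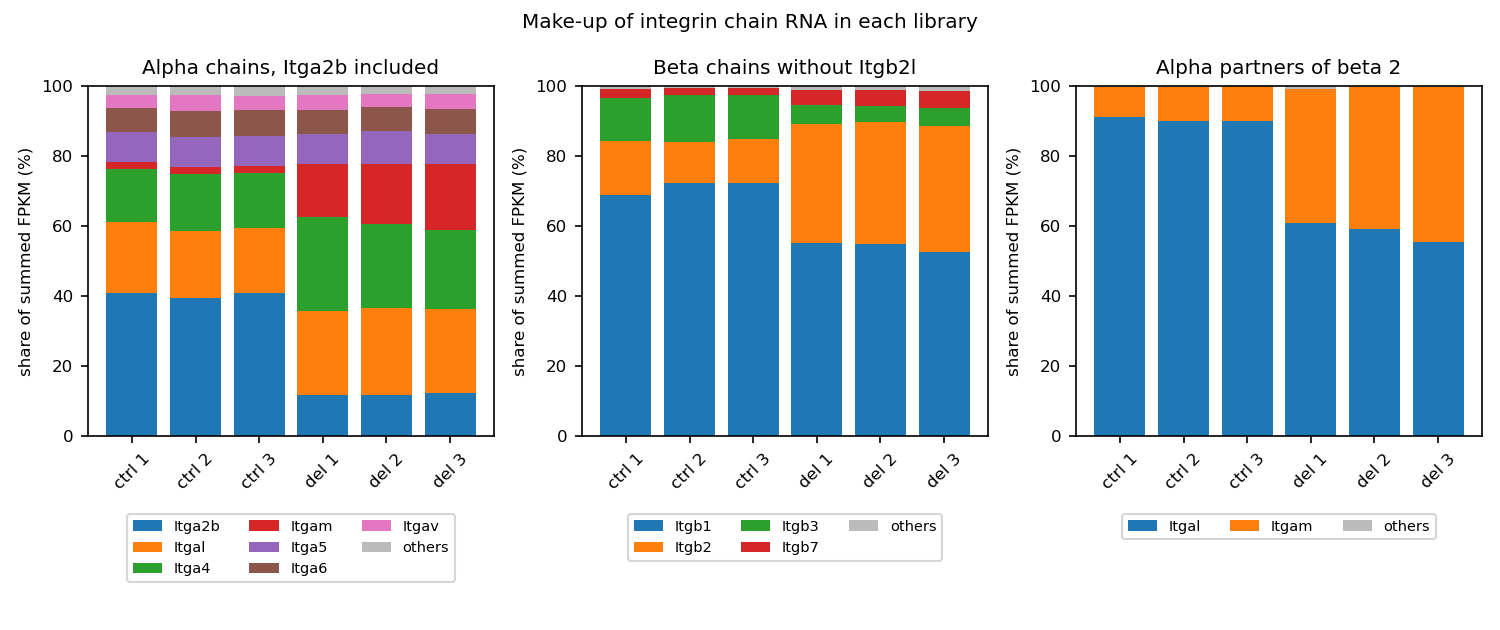
Share of the summed FPKM (percent, bars from 0 to 100) that each chain held in each library, for the α chains with Itga2b, the β chains without Itgb2l, and the α partners of β2; ctrl is control and del Dot1l-deleted. Itgam takes 38.3% to 44.1% of the β2 partners in the deleted libraries and 8.77% to 10.05% in controls.

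The β1 chain gene Itgb1, which pairs with most α chains, did not pass, at 97.5, 102 and 98.3 FPKM in controls and 95.5, 88.9 and 64.5 FPKM after deletion. The groups did not overlap as deposited, but most of the distance lay in the third deleted library (log2 fold change -0.27, SE 0.183, limma adjusted p = 0.326; scaled value -0.09). Itga4, the α chain that binds VCAM1 and fibronectin, was at 30.4, 34.2 and 31.2 FPKM and at 47.0, 39.5 and 29.2 FPKM. The third deleted library was below every control and the other deleted libraries were above them, and the test did not pass as deposited (limma adjusted p = 0.390), but did in the upward direction with scaling (log2 fold change 0.42, adjusted p = 0.00688) and without that library (0.42, adjusted p = 0.0202). Within each library, the ratio of Itga4 to the fibronectin receptor chain Itga5 was 1.74 to 1.91 in controls and 2.55 to 3.10 after deletion.

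Itga5 itself was at 17.4, 17.9 and 17.4 FPKM in controls and at 15.2, 15.5 and 10.9 FPKM after deletion. The laminin receptor chain Itga6 was at 13.8, 15.6 and 14.3 FPKM and at 12.1, 11.5 and 9.18 FPKM. In both genes every deleted library was below every control; as deposited neither passed (limma adjusted p = 0.168 and 0.0888), and with scaling both were called lower, with log2 fold changes of -0.16 and -0.22 (adjusted p = 0.0109 and 0.0304).

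The β7 chain and its αE partner moved in opposite directions. Itgb7 (ENSMUSG00000001281) was at 3.61, 2.73 and 2.65 FPKM in controls and at 7.53, 7.29 and 5.97 FPKM after deletion, a rise of 2.32-fold (log2 fold change 0.99, SE 0.156, limma adjusted p = 0.0012). Itgae (ENSMUSG00000005947), which pairs with β7 alone and binds E-cadherin, was at 2.07, 2.28 and 2.28 FPKM and at 0.781, 0.573 and 0.601 FPKM, a fall of 3.39-fold (log2 fold change -0.96, SE 0.178, limma adjusted p = 0.00341). Neither gene's groups overlapped. Itgae passed the filter only through the controls, in which it was high, so its p is no support of its own. Relative to Itga4, the other partner of β7, Itgae was at 0.0667 to 0.0730 in controls and at 0.0145 to 0.0206 after deletion.

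The β3 chain gene Itgb3 (ENSMUSG00000020689), whose product joins αIIb on platelets and αv elsewhere, was at 17.6, 19.1 and 17.2 FPKM in controls and at 9.16, 7.65 and 6.41 FPKM after deletion. No deleted library reached a control, and the fall was 2.32-fold (log2 fold change -1.13, SE 0.149, limma adjusted p = 0.000362; scaled value -0.96). Its αIIb partner Itga2b was at 82.8 ± 0.598 and 18.7 ± 2.35 FPKM, and its other partner Itgav at 8.65 ± 0.900 and 6.57 ± 0.996 FPKM (SD, n = 3 each; Itgav limma adjusted p = 0.126). Of 12 megakaryocyte and platelet markers, 6 were tested, and 2 rose and 2 fell, beside 7.43% and 12.2% of all tested genes. The summed level of the 12 was 38.9 to 46.5 FPKM in controls and 54.4 to 72.8 FPKM after deletion, and Gp6 was listed at 0. The part of megakaryocytes and platelets in the change of Itgb3 was not tested. Itgb5, another partner of αv, was at 0.928, 0.663 and 0.489 FPKM and at 1.81, 1.68 and 1.33 FPKM. Its groups did not overlap, and it narrowly missed the threshold as deposited (log2 fold change 0.63, SE 0.199, limma adjusted p = 0.0507), while it was called higher with scaling (adjusted p = 0.00499). Itgb5 passed the filter only through the deleted libraries, in which it was high, so these p-values are no support of their own.

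Low-level α chains included some of the widest ratios. Itga8, a β1 partner that binds nephronectin, was at 1.32, 1.54 and 1.73 FPKM in controls and at 0.206, 0.211 and 0.205 FPKM after deletion, 7.37-fold lower. The deleted libraries lay close together, well under the controls. It was below the filter as a mean over all libraries; with the filter at 0.3 FPKM, under which 8.32% of 13886 genes were called higher and 11.2% lower, its log2 fold change was -1.06 (SE 0.129, limma adjusted p = 0.000595). It entered that test only through the controls, in which it was high, so this p is no support of its own. Itga1, a collagen receptor chain, was at 0.0271, 0.0800 and 0.0345 FPKM and at 1.33, 0.923 and 0.710 FPKM. Under that filter its log2 fold change was 0.91 (SE 0.151, limma adjusted p = 0.00335), but it entered the test only through the deleted libraries, in which it was high. Its direct neighbour Itga2, the other classical collagen receptor chain, was at or under 0.0182 FPKM in controls and at 0.0446 to 0.105 FPKM after deletion, below both filters. In the annotation GENCODE M21 exons of Itga1, Itga10, Itgad and Itgam overlap a predicted gene on the same strand. Those of Itga4, Itga7, Itga8, Itgad, Itgav, Itgb4, Itgb1bp1, Itgb1bp3, Itgb3bp, Icam1, Icam5, Jam3, Selp and Vcam1 overlap a gene on the opposite strand. Of these opposite genes, Pgm1 at Itgb3bp was at 76.1 to 85.3 FPKM in controls and at 45.1 to 68.0 FPKM after deletion. Cpsf3 at Itgb1bp1 was at 66.3 to 68.0 and at 52.1 to 74.6 FPKM. Reads of the same-strand pairs may be shared in any case. Those of the opposite-strand pairs may be shared if strand was not used in counting, which is not known here.

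P-selectin and E-selectin, products of platelets and endothelium, were low: Selp was at 0.232 to 0.361 FPKM in controls and at 0.470 to 0.813 FPKM after deletion, and Sele at 0.0419 to 0.0756 and 0.123 to 0.212 FPKM. In both genes every deleted library was above every control. Neither reached the main filter; at 0.3 FPKM Selp did not pass as deposited (log2 fold change 0.34, limma adjusted p = 0.127) and passed with scaling (0.39, limma adjusted p = 0.0133). Selplg, encoding the ligand PSGL-1, was at 136.4, 124.6 and 110 FPKM and at 116, 113 and 84.7 FPKM, and the groups overlapped (limma adjusted p = 0.373).

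Vcam1 (ENSMUSG00000027962) encodes the counter-receptor of α4β1. With a pseudocount of 1 it had the largest log2 fold change of the 25 tested adhesion genes; with 0.1, Itgb2l was level with it (3.78 against 3.76). It was at 1.93, 2.20 and 2.31 FPKM in controls and at 28.9, 35.5 and 26.8 FPKM after deletion. The lowest deleted library was more than 10 times the highest control, and the mean rose 14.2-fold (log2 fold change 3.31, SE 0.145, limma adjusted p = 3.10e-07; scaled value 3.46). Within a library its level was 0.0635 to 0.0739 of that of Itga4 in controls and 0.614 to 0.916 after deletion.

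Among molecules of endothelial junctions that blood cells also make, PECAM1 was called lower. Pecam1 (ENSMUSG00000020717), the CD31 gene, was at 65.2, 68.0 and 60.4 FPKM in controls and at 47.7, 47.6 and 35.4 FPKM after deletion, with no overlap (log2 fold change -0.57, SE 0.169, limma adjusted p = 0.0396; scaled value -0.39, adjusted p = 0.00103). The call was lost with no filter, without any 1 of the controls, and without the second deleted library, with adjusted p-values of 0.0507 to 0.178. Esam, a junction molecule that also marks haematopoietic stem cells, was at 1.56, 1.498 and 2.08 FPKM and at 0.133, 0.108 and 0.0914 FPKM, 15.4-fold lower. It missed the main filter, and with the filter at 0.3 FPKM its log2 fold change was -1.28 (SE 0.137, limma adjusted p = 0.000298), a test it entered only through the controls. Jam2 and Jam3, which bind each other at cell contacts, were lower in each deleted library than in any control: Jam2 was at 1.45 ± 0.208 and 0.846 ± 0.0119 FPKM, and Jam3 at 0.906 ± 0.0880 and 0.456 ± 0.118 FPKM (SD, n = 3 each). Jam2 did not pass (limma adjusted p = 0.162), and Jam3, tested with the filter at 0.3 FPKM, passed with scaling alone (adjusted p = 0.0741 as deposited and 0.0219 scaled). Their relative F11r, also called JAM-A, was at 4.56 ± 0.163 and 4.12 ± 1.03 FPKM with overlapping groups.

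The ICAMs, ligands of β2 integrins, gave no call as deposited. Icam1 was at 9.03 ± 0.363 and 8.15 ± 0.743 FPKM and Icam2 at 54.7 ± 1.96 and 43.5 ± 8.86 FPKM (SD, n = 3 each; limma adjusted p = 0.498 and 0.216), and Icam2 was called lower with scaling (log2 fold change -0.16, adjusted p = 0.0225). The sign of Icam1 turned with scaling, from -0.13 to 0.03. Icam5, an ICAM known from neurons, stayed at or under 0.307 FPKM. The hyaluronan receptor gene Cd44 was at 39.2, 37.1 and 35.7 FPKM and at 63.1, 56.6 and 44.0 FPKM, all deleted libraries above all controls. It missed the threshold as deposited (log2 fold change 0.52, SE 0.170, limma adjusted p = 0.0567) and passed with scaling (0.70, adjusted p = 0.000110) and without the third deleted library (0.67, adjusted p = 0.00163). Cd47, whose product signals to SIRPα on phagocytes, was the highest of the 45 genes, at 332, 324 and 325 FPKM in controls and at 306, 325 and 235 FPKM after deletion. Its groups overlapped (limma adjusted p = 0.481).

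**Figure D3:**
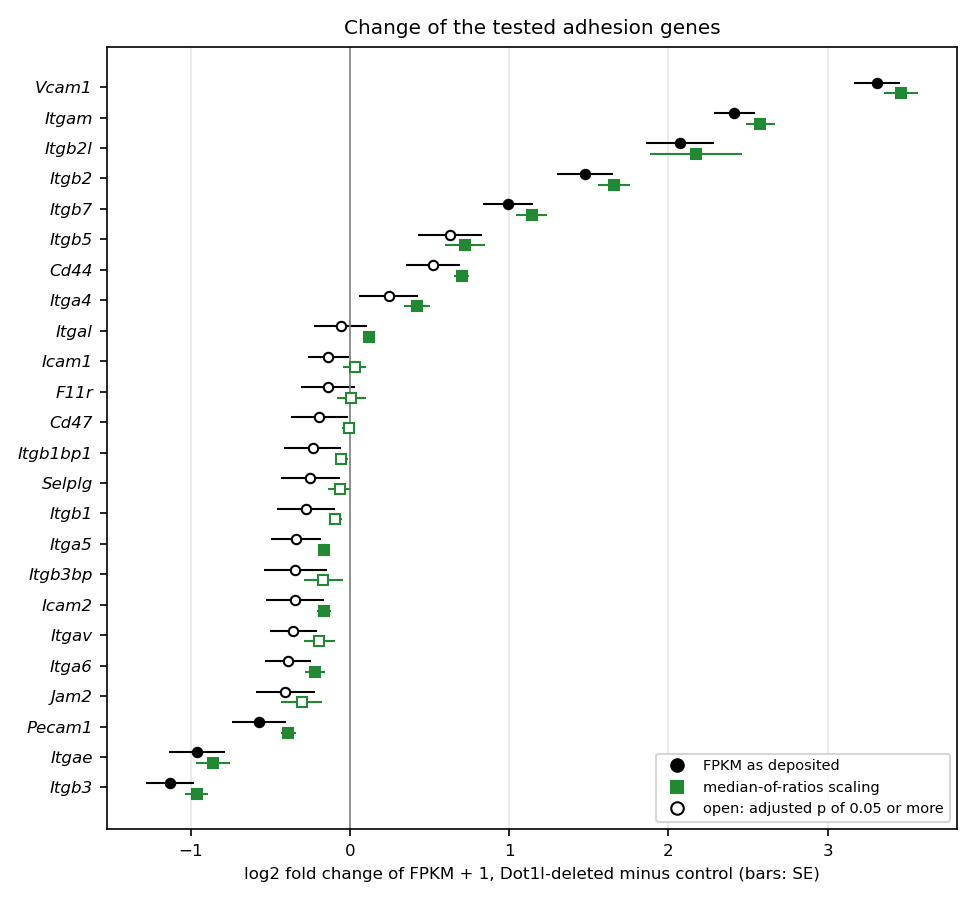
Log2 fold change of FPKM + 1 (Dot1l-deleted minus control, bars are SE) of 24 of the 25 tested adhesion genes, as deposited (black circles) and with median-of-ratios scaling (green squares); filled symbols have an adjusted p under 0.05. Scaling moves the genes up together, turns the sign of Itgal, Icam1 and F11r, and leaves Vcam1 highest at 3.46 and Itgb3 lowest at -0.96.

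Of the 4 genes that encode no integrin chain, 2 were tested and neither passed. Itgb1bp1, a binder of the β1 tail, and Itgb3bp, a centromere protein, were at 48.6 ± 1.58 and 24.8 ± 4.63 FPKM in controls and at 41.8 ± 8.33 and 19.5 ± 4.13 FPKM after deletion (SD, n = 3 each), with overlapping groups. Itgb1bp2 was below the filter, at 0.696, 0.710 and 1.23 FPKM and at 0.641, 0.492 and 0.277 FPKM, and Itgb1bp3 was listed at 0 in every library. Itga11 and Itgb8 were also listed at 0 throughout. Of the other genes below the filter, Itga9 and Itga10 lay between 0.499 and 0.913 FPKM, Itgb4 between 0.169 and 0.261 FPKM, and Itga3, Itga7 and Itgb6 at or under 0.0754 FPKM. Of the 25 tested genes, 8 had every deleted library above every control and 10 the reverse, beside 10.7% and 34.1% of all tested genes; with scaling the counts were 10 and 7, beside 28.2% each. Over all 45 genes, those below the filter included, the counts were 14 and 16, and 17 and 13 with scaling. No share over all genes without the filter was computed, so these last counts have no background and are not read further.

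Beside these receptors, 4 lists of 125 further adhesion genes were examined, of which 122 were in the tables and 73 were tested. Of the 73, 19 rose and 13 fell, and 39 and 21 did with scaling. Each count in these lists stands beside 7.43% of all tested genes called higher and 12.2% lower, and 23.1% and 22.3% with scaling. List genes that passed the filter only through the group in which they were high were not counted apart. In the list of integrin activation and linkage to actin, 5 of 30 rose and 4 fell, with a median log2 fold change of 0.00306; with scaling 16 rose and 7 fell. The numbers that fell are near the background shares. The Src-family kinase gene Fyn fell from 24.0 ± 1.59 to 4.94 ± 0.848 FPKM (SD, n = 3 each). Rasgrp2, encoding the activator of Rap1 that turns integrins on, rose from 52.5 ± 3.76 to 121 ± 13.5 FPKM, and Parvb, an actin linker gene, fell from 7.72 ± 1.196 to 1.51 ± 0.273 FPKM. The core activators were not called as deposited: talin (Tln1) was at 62.8 ± 2.40 and 66.8 ± 12.4 FPKM and kindlin-3 (Fermt3) at 145 ± 4.88 and 119 ± 20.5 FPKM; with scaling Tln1 was called higher and Fermt3 lower. Both were named after their values were seen.

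Of 10 tested genes for matrix and counter-receptor ligands, 4 rose and 2 fell, and 5 and 4 with scaling. Spp1, encoding osteopontin, a ligand of αv and α4 integrins, rose from 10.4 ± 3.09 to 76.1 ± 17.2 FPKM, Thbs1 from 3.18 ± 0.439 to 10.8 ± 2.91 FPKM, and Sirpa, the receptor of CD47, from 15.3 ± 1 to 33.2 ± 6.04 FPKM, while the basement membrane collagen gene Col4a1 fell from 34.95 ± 2.35 to 1.26 ± 0.303 FPKM (SD, n = 3 each). Fn1, encoding fibronectin, is added because 1 library set its mean: it was at 10.04 FPKM in the third deleted library and at 4.15 ± 5.10 FPKM over the group, against 1.82 ± 0.134 FPKM in controls (limma adjusted p = 0.600).

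Among 15 tested genes for the synthesis and carriers of selectin ligands, 3 rose and 3 fell, and 7 and 4 with scaling, the last being near its background share. The carrier genes Cd34 and Podxl fell, the latter from 10.9 ± 1.82 to 5.83 ± 0.560 FPKM, and Cd24a and the tyrosine sulfotransferase gene Tpst1 rose, from 10.3 ± 0.865 to 38.5 ± 4.61 FPKM and from 2.34 ± 0.188 to 4.78 ± 1.30 FPKM (SD, n = 3 each). Of 18 other adhesion and tetraspanin genes, 7 rose and 4 fell, and 11 and 6 with scaling. Ceacam1 rose from 1.64 ± 0.196 to 13.9 ± 0.459 FPKM, Alcam from 0.475 ± 0.0384 to 4.35 ± 0.393 FPKM and the nectin gene Pvrl2 from 1.83 ± 0.191 to 5.61 ± 0.577 FPKM, while Cd48 fell from 202 ± 8.06 to 58.4 ± 11.2 FPKM (SD, n = 3 each). Each list gene said here to rise or fall had a limma adjusted p of at most 0.016 and groups that did not overlap. They were named for their small p, so its size is set by that choice. Alcam passed the filter only through the deleted libraries, in which it was high, so its p is no support of its own. The medians of the last 3 lists were 0.28, -0.06 and 0.30 on the log2 scale, beside -0.16 for all tested genes.

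**Figure D4:**
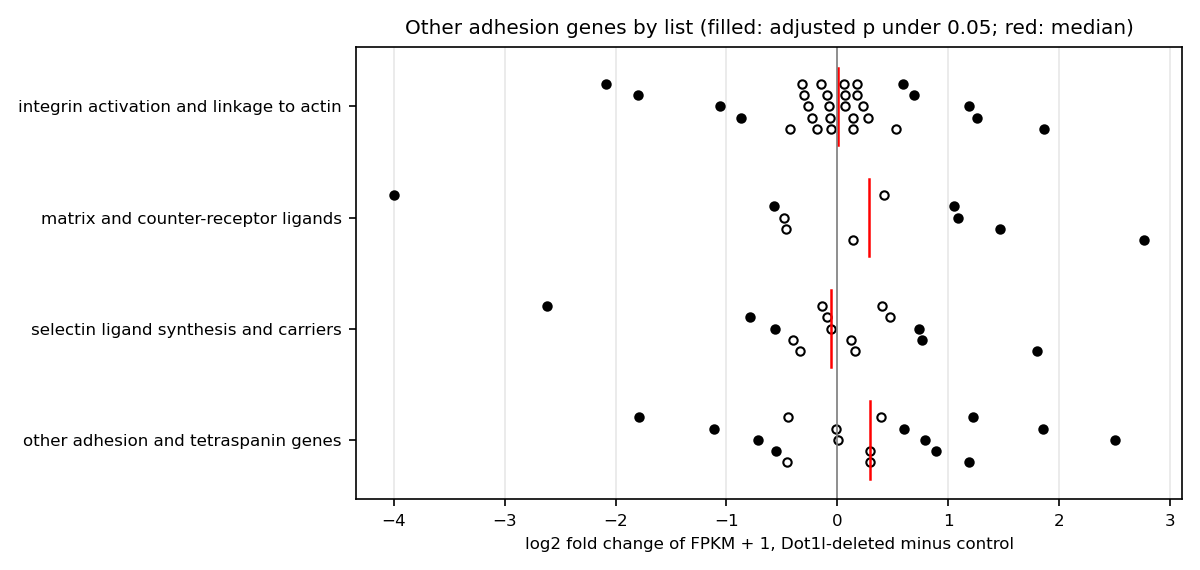
Log2 fold change of FPKM + 1 (Dot1l-deleted minus control) of the 73 tested genes of 4 further adhesion lists, 1 point per gene, filled where the adjusted p was under 0.05, with the median of each list in red. Col4a1 lies lowest at -4.00 and Spp1 highest at 2.77.

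Most tested markers of maturing myeloid cells rose, as Itgam and Itgb2 did, while the β2 partner Itgal did not pass as deposited. Each count of markers called here stands beside 7.43% of all tested genes called higher and 12.2% lower. Markers that passed the filter only through the group in which they were high were not counted apart, and their p-values are no support of their own. Of 15 neutrophil markers, 13 were in the tables and 12 were tested, and all 12 rose; their summed level was 1672 to 1935 FPKM in controls and 23281 to 28384 FPKM after deletion, and Mmp9 was at 0 in the controls. Of 11 monocyte and macrophage markers, 9 were tested, 6 rose and 1 fell, and the sums were 172 to 194 and 886 to 1171 FPKM. The part of these cells in the changes of Itgam, Itgb2, Itgb2l and Vcam1 was not tested. Of 17 endothelial and stromal markers, 5 were tested; Acta2 rose, and none was called lower as deposited, though Egfl7 had a log2 fold change of -0.50 (limma adjusted p = 0.0815, unadjusted p under 0.05) and was called lower with scaling. Their sums were 41.2 to 46.8 FPKM in controls and 35.9 to 53.3 FPKM after deletion. Of the 17, 2 were listed at 0 throughout, Dcn and Lum. The part of endothelial and stromal cells in the level of Pecam1 was not tested. Of 15 lymphocyte markers, 3 were tested, of which Cd79b and Nkg7 rose and Lck did not pass, and Cd3g, Cd8a, Cd8b1, Ms4a1 and Ncr1 were listed at 0 throughout; the sums were 59.3 to 71.8 and 115 to 168 FPKM.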

How the data were processed

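RNA was sequenced from 3 control and 3 Dot1l-deleted libraries, prepared with a stranded mRNA kit per the labels. The authors deposited FPKM per gene and library. The submitters' processing notes name CASAVA 1.8.2, GSNAP, SAMtools, Cuffdiff and the build mm9, with no roles; annotation and strand settings are not known here. FPKM carries no read depth, so no counting interval is given. The 378 rows with the placeholder 999999999 in any library (304 to 318 per library) were dropped. Genes with a mean of at least 1 FPKM were tested on log2(FPKM + 1) with limma 3.58.1 (R 4.3.3, moderated test with a mean-variance trend, no covariates), Benjamini-Hochberg adjusted over all tested genes, at 0.05. The script was tested on simulated data. Shares used exact permutation. The adhesion genes and lists were chosen with earlier results of these data known. All 45 genes enter the counts, though values of some genes are not reported here, and up to 4 genes per further list were named by smallest adjusted p, unless said otherwise. Same-numbered libraries did not deviate together. Alternatives changed the pseudocount (0.1, 5), the filter, scaling, weights, trend, pairing and libraries; scaling with a filter at 0.3 FPKM was chosen after seeing the data.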

Additional observations from a re-analysis of the deposited data

How the results depend on the processing

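Vcam1, Itgam, Itgb2, Itgb2l, Itgb7, Itgb3 and Itgae kept their call under every alternative run, and Pecam1 lost its call as given above. Itgb2l and Itgae entered the main fit only through the group in which they were high. Pseudocounts of 0.1 and 5, or no trend, gave 6 to 7 of the 25 genes higher and 3 lower. Of all 11924 tested genes they gave 892 to 927 higher and 1396 to 1552 lower. Adhesion genes called higher and lower numbered 10 and 6 of 25 with median-of-ratios scaling (23.1% and 22.3% of all tested genes). They numbered 12 and 9 of 33 with that and a filter at 0.3 FPKM (chosen after seeing the data). With no filter they numbered 8 and 7, and with the filter at 0.3 FPKM 8 and 5 of 33 (8.32% and 11.2% of all tested genes). They were 9 and 8 with quantile normalization, 9 and 8 with array weights, and 9 and 6 with scaling when the third Dot1l-deleted library was left out. A lower filter or none lets more genes into the test, so larger counts there do not mean that a larger share changed. Leaving out 1 library gave 5 to 9 higher and 2 to 7 lower. In the same order without the unscaled 0.3 filter and without the no-filter setting, the further lists gave 39 and 21, 47 and 25, 38 and 21, 37 and 21, and 37 and 17, and 13 to 34 and 9 to 19 with 1 library left out. All tested genes gave 2754 and 2660, 3137 and 2786, 2412 and 3196, 2531 and 3185, and 2319 and 2237 in that order, 1342 and 1373 with no filter, and 700 to 2041 and 1012 to 2517 with 1 library left out. The cause was not tested, beyond the change in genes or libraries entering each fit.

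Replicate numbers did not pair the libraries (correlations of deviations -0.0301, -0.0377 and 0.0128). With the replicate block the adhesion genes gave 7 and 3, the further lists 19 and 16 and all genes 1152 and 1801; with the block and scaling they gave 9 and 5, 36 and 19, and 2314 and 2156.

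The sign turned for 3 genes that were not called as deposited. Of these, Itgal was narrowly called higher with scaling, at either filter. F11r went from -0.14 to 0.010 with scaling (also with the block or the filter at 0.3 FPKM), 0.029 with scaling when the third Dot1l-deleted library was left out and 0.093 with array weights, and ranged from -0.28 to 0.0047 with 1 library left out. Icam1 went from -0.13 to 0.031 with scaling (also with the block or that filter) and 0.0055 with quantile normalization. Itgal went from -0.06 to 0.12 with scaling (also with the block or that filter), 0.10 with quantile normalization, 0.11 with scaling when that library was left out and 0.093 with array weights, and ranged from -0.13 to 0.085 with 1 library left out. Depth is unknown, and 12 of the 45 genes had a mean under 0.3 FPKM, below both filters.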
